A study of Mus musculus with 60 samples.

Results

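The proteasome genes of the mouse were examined in RNA of Kupffer cells, macrophages that live in the liver. Members were the rows of the deposited count table whose gene name starts with Psma, Psmb, Psmc, Psmd, Psme, Psmf or Psmg and a number, which gave 50 of 24411 genes. Of these, 48 encode subunits or regulators of the proteasome. The other two are Psmc3ip, which encodes a meiotic recombination protein and no proteasome subunit, and Psme2b, a near-identical copy of Psme2 whose reads may be divided between both genes, so that its values are uncertain. After a filter on low counts 47 members were tested among 9001 genes, 46 of them subunits or regulators; Psma8, Psmb11 and Psmc3ip were not tested.

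All mice were C57BL/6J, 8 weeks old and labelled male, and 5 mice stood in each of 3 groups. Wild-type mice had been injected with corn oil, wild-type mice with CCl4 (carbon tetrachloride, which is toxic to hepatocytes; 2 µl/g, 1:4 in corn oil), and Trem1-deficient mice with the same dose of CCl4. The Trem1 product is a receptor that amplifies inflammatory signals in myeloid cells. How the deficient line was made is not described in the labels. Livers were taken 12 h after the dose, hepatocytes were spun out, cells binding CD11b beads were removed, and F4/80-positive cells were collected from the remainder. The design held no oil group of Trem1-deficient mice, and what CCl4 changed within that genotype therefore has no value here.

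The 26S proteasome degrades proteins that carry ubiquitin chains. Its 20S core is a barrel of alpha and beta rings, with the proteolytic sites in the beta subunits encoded by Psmb5, Psmb6 and Psmb7. Its 19S regulatory particle binds and unfolds the substrate: the Psmc genes encode the ring of ATPases, and the Psmd genes encode the other subunits of the base and of the lid, which removes ubiquitin. Interferon-gamma induces Psmb8, Psmb9 and Psmb10, whose products replace the constitutive catalytic subunits to form the immunoproteasome, and macrophages use it to make peptides for MHC class I molecules.

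The libraries were made by 3' tag sequencing, where reads start close to transcript ends, and held 812320 to 2593004 counts in genes. Levels are CPM, counts as a rate of the library total scaled by TMM, a correction for composition. A count of 0 allows up to 3 counts, which came to 0.988 to 4.09 CPM by library and covers counting error only. Trem1 itself lay at 32.4 to 107 CPM in oil, 109 to 566 CPM in wild-type CCl4 and 1.15 to 10.7 CPM in Trem1-deficient libraries. The libraries fell into 2 sets that cross the labels. The index numbers form 2 series, with the oil group and Trem1-deficient mice 1 and 2 in one, and the wild-type CCl4 group and the remaining Trem1-deficient mice in the other. The 7 libraries of the first series held Xist counts of 72 to 1552 and at most 7 counts of Y-linked genes, and the 8 of the second held 134 to 425 counts of Y-linked genes, against the label of male for every mouse. In wild type an effect of CCl4 and one of index series or of sex-linked transcripts therefore cannot be told apart. Cell markers also differed: the 14 Kupffer markers summed to 29554 to 68192 CPM in oil, 5320 to 16962 CPM in wild-type CCl4 and 48270 to 65327 CPM in Trem1-deficient libraries, with 0 of 14 at 0 in any group. The 20 hepatocyte markers summed to 3521 to 16034, 15024 to 55721 and 2536 to 25643 CPM in the same order. The 10 monocyte markers summed to 1069 to 1820 CPM in oil, 2172 to 4541 CPM in wild-type CCl4 and 1049 to 2354 CPM in Trem1-deficient libraries. The neutrophil markers, 10 of 11 of which are in the table, summed to 229.6 to 1556, 1179 to 11763 and 415 to 3692 CPM, and the 10 markers of sinusoidal endothelium to 871 to 3108, 1114 to 2161 and 1268 to 4644 CPM. In wild type, 11 Kupffer markers were called lower after CCl4 than after oil, against 2.09% of all tested genes. Called higher were 5 hepatocyte, 5 monocyte and 4 neutrophil markers, against 3.04%. After CCl4, 10 Kupffer markers were called higher in Trem1-deficient than in wild-type mice, against 0.778% of all tested genes. Called lower there were 2 hepatocyte, 3 monocyte and 2 neutrophil markers, against 1.28%. Their part in the results below was not tested, and in such bulk samples fewer cells of a type and less RNA per cell cannot be told apart. Of the tested genes, 23.5% were at 0 in wild-type CCl4 mouse 5, 18.8% in oil mouse 2 and 17.2% in wild-type CCl4 mouse 2; the other libraries had 0.511 to 11.6%.

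The first comparison asked what CCl4 changed in cells of wild-type mice. Psmd7 and Psmd11, which encode lid subunits of the 19S particle, rose, and Psmb9, an immunoproteasome subunit, fell; the other 44 tested members did not pass the test. By edgeR's quasi-likelihood test with Benjamini-Hochberg adjustment over 9001 genes, 2 of 47 members were thus higher (4.26%), against 3.04% of all tested genes, and 1 of 47 was lower (2.13%), against 2.09%. The share of members called was close to that of all genes in both directions. Scaling moved the calls over all genes, from 274 higher and 188 lower to 215 and 315 with the library total alone and 200 and 216 with upper-quartile scaling; both kept Psmd7 and Psmd11 as the members called higher and Psmb9 as the member called lower.

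Psmd11 encodes Rpn6, a scaffold subunit that clamps the 19S particle to the 20S core. Its level was 12.0, 0, 7.74, 18.9 and 5.18 CPM in oil mice 1 to 5 and 53.1, 77.3, 151, 214 and 345 CPM in wild-type CCl4 mice 1 to 5. Each wild-type CCl4 mouse lay above each oil mouse, and oil mouse 2 had no count of the gene. The counts behind these levels were 0 to 20 in oil and 78 to 379 in wild-type CCl4 libraries. The mean was 8.78 ± 7.15 CPM (SD, n = 5) in oil and 168 ± 117 CPM in wild-type CCl4, and the fitted log2 fold change was 4.24 ± 0.75 (SE; edgeR adjusted p = 0.000456), an 18.9-fold rise. Psmd7 encodes Rpn8, the partner of the deubiquitinase Rpn11 in the lid. Its level was 172, 328, 191, 237 and 247 CPM in oil mice and 887, 623, 1471, 493 and 551 CPM in wild-type CCl4 mice, again without overlap. Its log2 fold change was 1.78 ± 0.32 (edgeR adjusted p = 0.000651), a 3.43-fold rise with 5 of 5 mice above the oil mean. With index series as a term in the fit, Psmd7 was at 2.05 ± 0.55 with an edgeR adjusted p of 0.108. Psmd11 was at 3.79 ± 1.19 with 0.264. In wild type the series equals the group, so the term was estimated only from Trem1-deficient mice, which fall in both series. The SE was larger than in the main fit for both genes.

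**Figure D1:**
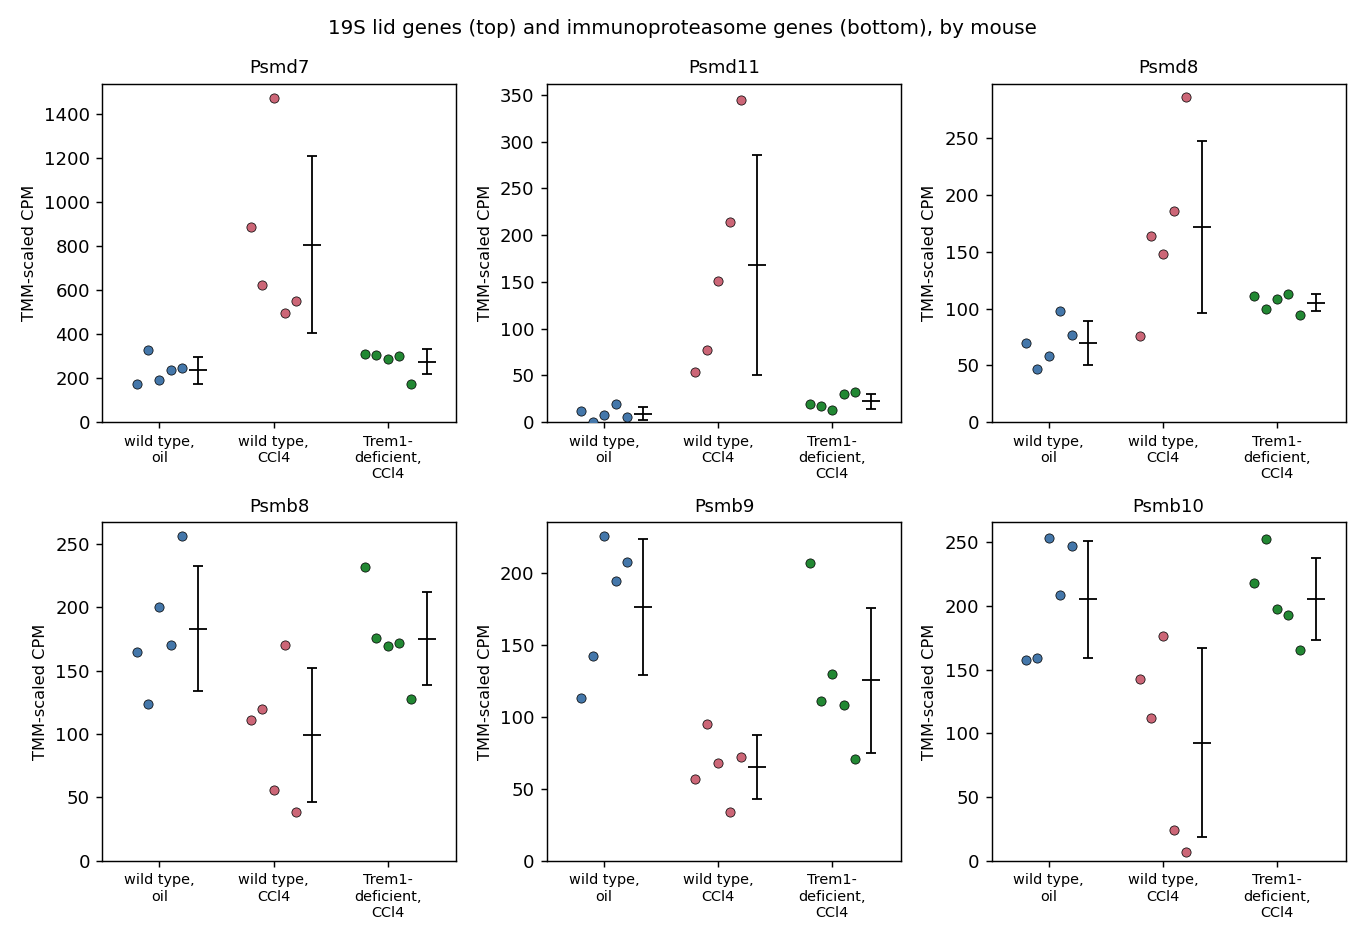
TMM-scaled CPM (vertical axes, from 0) of Psmd7, Psmd11 and Psmd8 (top) and of Psmb8, Psmb9 and Psmb10 (bottom); points are the 5 mice of a group, and the bar beside them is the mean with its SD. Psmd7 and Psmd11 are higher in each wild-type CCl4 mouse than in any other mouse, and Psmb9 is lower there than in any oil mouse.

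Psmd11 (ENSMUSG00000017428.16) lies on chromosome 11, 80428615 to 80473248, plus strand, and Psmd7 (ENSMUSG00000039067.5) on chromosome 8, 107580381 to 107588464, minus strand, in GENCODE M21 on GRCm38; neither overlaps another annotated gene. Psmb9 (ENSMUSG00000096727.3, chromosome 17, 34181987 to 34187764, minus strand) overlaps Tap1 at its start, away from the 3' end that gives the reads. Psmb8 (ENSMUSG00000024338.15, chromosome 17, 34197721 to 34201454, plus strand) lies beside it, in the class II region of the MHC. The RefSeq promoters of 3 of these genes (GRCm38.p6, 250 bases before to 50 after the start) are shown because Psmd11 and Psmb9 passed the test in opposite directions and Psmb8 shares the interferon-induced class of Psmb9. They are chr11:80428365-80428664 on the plus strand, chr17:34187281-34187580 on the minus strand and chr17:34197945-34198244 on the plus strand. The Psmd11 window spans the GENCODE start given above. The windows of Psmb9 and Psmb8 follow other RefSeq starts and lie inside the GENCODE bounds of these genes, not upstream of them. Capitals mark matches to 5 motifs searched on both strands: a CCAAT box (CCAAT), an antioxidant response element core (TGACNNNGC), an interferon-gamma activated site (TTCNNNGAA), a heat shock core (GAANNTTC) and the interferon-stimulated response element core.
Psmd11: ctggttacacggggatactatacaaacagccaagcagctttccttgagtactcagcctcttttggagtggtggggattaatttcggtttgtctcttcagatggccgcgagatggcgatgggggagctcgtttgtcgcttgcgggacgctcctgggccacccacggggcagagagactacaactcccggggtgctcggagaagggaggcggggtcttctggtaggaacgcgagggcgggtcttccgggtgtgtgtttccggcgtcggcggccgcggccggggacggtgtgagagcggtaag
Psmb9: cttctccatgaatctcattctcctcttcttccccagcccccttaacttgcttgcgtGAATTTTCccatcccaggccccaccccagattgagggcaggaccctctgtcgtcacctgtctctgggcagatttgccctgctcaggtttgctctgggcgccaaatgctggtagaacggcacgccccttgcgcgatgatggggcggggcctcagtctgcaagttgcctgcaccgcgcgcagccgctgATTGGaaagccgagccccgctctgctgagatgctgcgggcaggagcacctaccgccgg
Psmb8: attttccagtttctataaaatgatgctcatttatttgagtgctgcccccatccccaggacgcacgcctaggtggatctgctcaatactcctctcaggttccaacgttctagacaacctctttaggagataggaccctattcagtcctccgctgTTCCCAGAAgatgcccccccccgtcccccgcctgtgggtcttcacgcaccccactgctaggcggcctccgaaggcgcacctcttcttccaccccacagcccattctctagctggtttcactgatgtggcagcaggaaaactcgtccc
The Psmd11 window held none of the 5 motifs. The Psmb9 window held the heat shock core GAATTTTC and a CCAAT box, read as ATTGG on the opposite strand, and the Psmb8 window held the activated site TTCCCAGAA. Promoters of 40 of the 48 subunits and regulators were found in the table. The CCAAT box was in 35.0% of them against 37.41% of all 32851 promoters, the antioxidant core in 15.0% against 12.39%, the activated site in 7.5% against 8.3% and the heat shock core in 7.5% against 7.86%. The interferon-stimulated core was in 5 of 40 (12.5%; Psmb3, Psmd4, Psmd9, Psme1 and Psmg4) against 3.44% of all promoters. A match is a description of these letters, not a site.

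The other 9 non-ATPase genes and the 6 ATPase genes of the 19S particle did not pass the test. Of the 11 non-ATPase subunits of the 19S particle, 10 had a positive log2 fold change, with a median of 0.63 beside 0.06 over all tested genes. Of these subunits 2 passed the test, against 3.04% of all tested genes called higher. Under other scalings 8 to 10 of the 11 were positive, and 7 of 11 with index series as a term. The next smallest p among members belonged to Psmd8, the lid subunit Rpn12, with 69.4, 46.9, 58.4, 97.4 and 76.3 CPM in oil and 76, 164, 148, 186 and 286 CPM in wild-type CCl4 mice. The groups overlap through wild-type CCl4 mouse 1, and the log2 fold change was 1.30 ± 0.42 (edgeR adjusted p = 0.0676). DESeq2, run as an alternative, called Psmd8 (adjusted p = 0.00770). Psmd12, the lid subunit Rpn5, was at 1.23 to 45.8 CPM in oil and 59.6 to 100.1 CPM in wild-type CCl4 without overlap, at a log2 fold change of 1.34 ± 0.67 (edgeR adjusted p = 0.280). Psmd7, Psmd11 and Psmd12 were the 3 of 47 members (6.38%) whose levels in wild-type CCl4 mice all lay above the oil mice, against 3.13% of all tested genes. Among base subunits, the ubiquitin receptor gene Psmd4 was at 0.63 ± 0.34 and Psmd1, a scaffold of the base, at 0.85 ± 0.39, neither called. Psmd2, the other large scaffold of the base, was at 0.37 ± 0.34. Psmd13, the lid subunit Rpn9, was the exception at -0.48 ± 0.29. The 6 ATPase genes divided evenly, 3 positive and 3 negative, from -0.25 to 0.97 (Psmc4). Of these 6 genes, 0 were called by edgeR, by DESeq2 or at an unadjusted p under 0.05. The shares of all tested genes were 5.13%, 11.2% and 19% in the same order.

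Summed by mouse, the 11 non-ATPase genes stood at 1489.5, 1639.6, 1654, 1643 and 1660.2 CPM in oil and 2673, 2209, 3308, 2238 and 3584 CPM in wild-type CCl4 mice. The groups did not overlap, and the oil values lay close together. Without Psmd7 and Psmd11 the other 9 summed to 1305 to 1456 CPM in oil and 1509 to 2689 CPM in wild-type CCl4, still apart; the highest value is wild-type CCl4 mouse 5, in which Psmd4 alone stood at 1370.2 CPM. Psmd7 and Psmd11 made up 15.0 ± 3.22% (SD, n = 5) of the non-ATPase counts in oil and 34.5 ± 8.93% in wild-type CCl4 libraries. These sums were chosen with the results in view and carry no test.

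**Figure D2:**
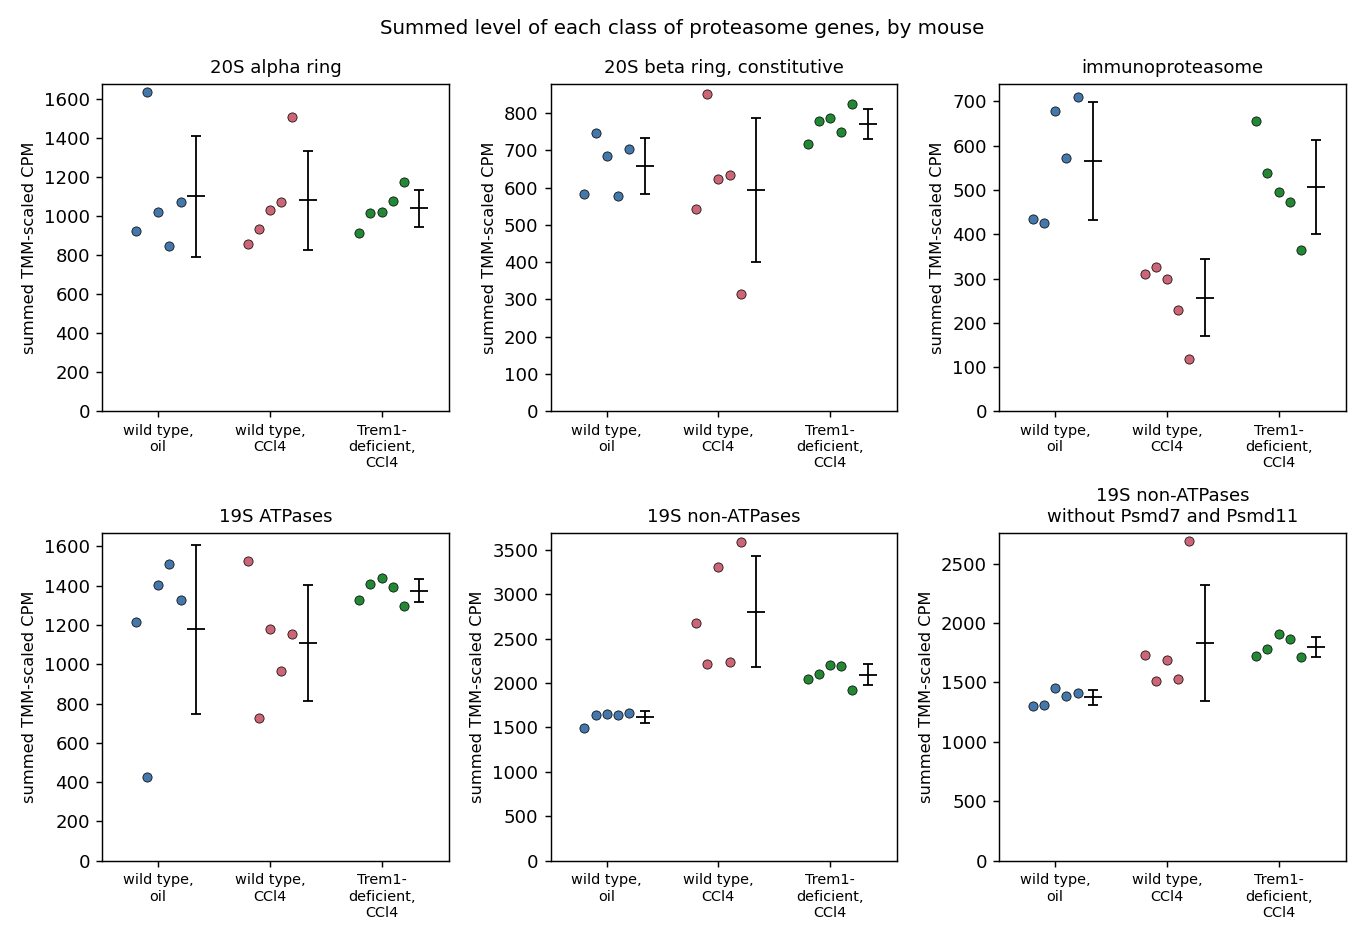
Summed TMM-scaled CPM (vertical axes, from 0) of 6 sets of proteasome genes; points are the 5 mice of a group, and the bar beside them is the mean with its SD. The 20S alpha and constitutive beta sums overlap between all groups, the immunoproteasome sum is lower and the 19S non-ATPase sum higher in each wild-type CCl4 mouse than in any oil mouse.

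The 3 immunoproteasome genes lay lower after CCl4 in wild type, and 1 of them passed the test, against 2.09% of all tested genes called lower. Psmb9 encodes the subunit that takes the place of Psmb6. It was at 113, 142, 225, 194 and 207 CPM in oil and 57.0, 95.2, 67.7, 33.8 and 72.3 CPM in wild-type CCl4 mice, without overlap, and fell 2.71-fold (log2 fold change -1.44 ± 0.42, edgeR adjusted p = 0.0437). The call was near the threshold and held in 8 of 19 alternatives, with adjusted p from 0.00892 to 1.00. Among those that ended it were RLE scaling, no filter on low counts and index series as a term (log2 fold change -0.81), and leaving out oil mouse 3, 4 or 5 or wild-type CCl4 mouse 1, 3 or 4 (adjusted p from 0.0505 to 0.121). Psmb10 was at 157 to 253 CPM in oil and 6.82 to 177 CPM in wild-type CCl4, with overlap, at -1.15 ± 0.50 (edgeR adjusted p = 0.207). Psmb8 was at 123 to 256 CPM in oil and 38.2 to 170.3 CPM in wild-type CCl4, at -0.88 ± 0.40 (edgeR adjusted p = 0.230). The 3 together summed to 435, 424, 679, 573 and 710.5 CPM in oil and 311, 327, 300.0, 228 and 117 CPM in wild-type CCl4 mice. The groups did not overlap, as the Kupffer marker sums given above did not. The median of the 3 log2 fold changes was -1.15, and all 3 were negative under each of 4 scalings. An antisense gene covers the 3' end of Psmb8 (Gm20496) and of Psmb10 (Gm16156), and without a stated strand setting their reads cannot be told apart.

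The constitutive 20S core showed no called gene. Of its 14 tested genes, 0 passed by edgeR, 2 had an unadjusted p under 0.05 (Psma4 and Psma1) and DESeq2 called 1 (Psma4). The shares of all tested genes were 5.13%, 19% and 11.2% in the same order. In the main fit 10 of 14 log2 fold changes were negative, with a median of -0.21. An alternative chosen after the data were seen left out the 3 libraries with the most genes at 0. There 4 of 7 alpha and 4 of 7 constitutive beta genes were positive, with medians of 0.01 and 0.07. The negative lean was thus not kept in that alternative. Psma4 was at 54.9 to 114 CPM in oil and at 106, 157, 141, 108 and 457 CPM in wild-type CCl4 mice (log2 fold change 1.21 ± 0.46, edgeR adjusted p = 0.126). Psma1 was at 88 to 426 CPM in oil and 63.4 to 149 CPM in wild-type CCl4 (-0.98 ± 0.43, edgeR adjusted p = 0.202). Psma2 was at -0.37 ± 0.35. The genes of the constitutive catalytic subunits gave -1.14 ± 1.24 for Psmb5, -0.21 ± 0.37 for Psmb6 and -0.28 ± 0.79 for Psmb7. Psmb5 had 0 to 56.8 CPM in the 15 libraries, with counts of 0 to 95. By mouse the 8 alpha genes summed to 849 to 1638 CPM in oil and 858 to 1512 CPM in wild-type CCl4. The 7 constitutive beta genes summed to 576 to 746 CPM and 315 to 851 CPM. Both pairs of ranges overlap.

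Activators, inhibitor and assembly factors had no called gene. Psme1, which encodes the alpha subunit of the interferon-inducible cap PA28, was at 186, 169, 275, 191 and 186 CPM in oil and 107, 165, 137, 69.9 and 5.45 CPM in wild-type CCl4 mice (log2 fold change -1.05 ± 0.50, edgeR adjusted p = 0.250). The groups did not overlap, as for Psmb9, which makes 2 of 47 members (4.26%) lower without overlap against 3.44% of all tested genes. The Emc9 gene overlaps the 3' end of Psme1 on the other strand. Psme2, the beta subunit of PA28, was at -0.74 ± 1.01, with Psme2b at -1.11 ± 1.13. Psme4, which encodes the cap PA200, was at 21.8 to 87.3 CPM in oil and at 117, 126, 124, 160.2 and 6.82 CPM in wild-type CCl4 mice (1.03 ± 0.58, edgeR adjusted p = 0.353); mouse 5 alone lay below the oil range. Without the 3 libraries with the most genes at 0, an alternative chosen after the data were seen, Psme4 passed the test (1.43, edgeR adjusted p = 0.0476) beside Psmd7, Psmd11 and Psmb9. Over all genes 388 were called higher in that alternative, beside 274 in the main fit. Psmf1, which encodes the inhibitor PI31, was at 1.06 ± 1.32. Psmg2, a chaperone of alpha ring assembly, was at 4.63 to 104 CPM in oil and 0 to 11.1 CPM in wild-type CCl4 (-3.32 ± 1.15, edgeR adjusted p = 0.0910, called by DESeq2 with adjusted p = 0.00878). Psmg3, of the other chaperone dimer, was at 1.15 ± 0.80. Of the 19S assembly chaperones, Psmd9 was at 0 to 17.0 CPM in oil and 2.73 to 78.3 CPM in wild-type CCl4 (2.86 ± 1.12, edgeR adjusted p = 0.145, DESeq2 adjusted p = 0.0290). Psmd9 shares its locus with Hpd, a gene of tyrosine breakdown in hepatocytes, on the opposite strand. Hpd does not overlap the last 500 bases of Psmd9. The counts of Psmg2 and Psmd9 were low, at 0 to 84 for Psmg2 per library.

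**Figure D3:**
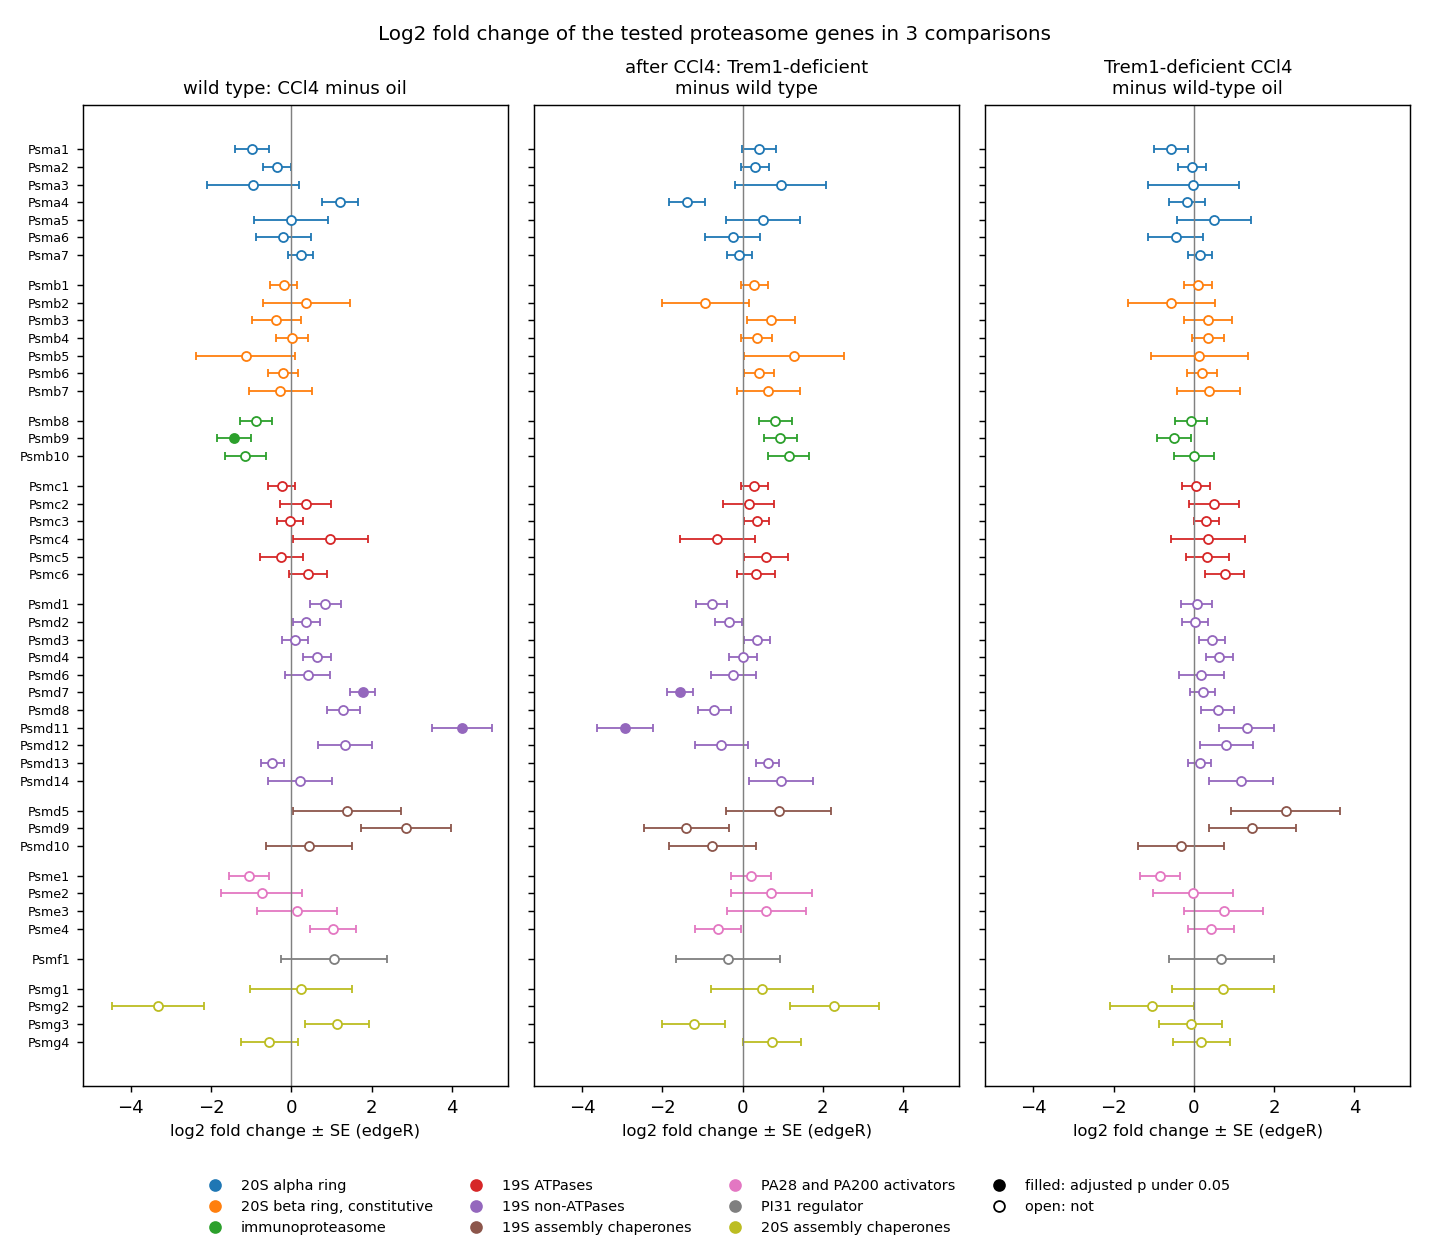
Log2 fold change with its SE from edgeR (horizontal axes) of the 46 tested subunits and regulators, in rows by class, in 3 comparisons that share their groups; filled points passed an adjusted p of 0.05. Filled points are Psmd7, Psmd11 and Psmb9 in the first panel, Psmd7 and Psmd11 in the second and none in the third.

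The second comparison asked how Trem1-deficient cells differed from wild-type cells after the same dose of CCl4. It shares the wild-type CCl4 mice with the first, so the results are not independent. Psmd7 and Psmd11 were lower in Trem1-deficient mice, and no member was called higher. By edgeR, 2 of 47 members were lower (4.26%) against 1.28% of all tested genes, and 0 were higher against 0.778%; 4 members (8.51%) were higher at an unadjusted p under 0.05, near the 6.79% of all tested genes, and DESeq2 called 0 members and 2.1% of all genes higher. Over all genes 70 were higher and 115 lower, which became 215 and 95 with the library total alone and 86 and 72 with upper-quartile scaling, with the same 2 members called lower in both.

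Psmd7 was at 309, 304, 285, 298 and 174 CPM in Trem1-deficient mice 1 to 5, all below the 493 CPM of the lowest wild-type CCl4 mouse. Its log2 fold change was -1.55 ± 0.32 (edgeR adjusted p = 0.00543), a 2.94-fold lower level. It was -1.67 with index series as a term (adjusted p = 0.0296) and -1.66 among the mice of 1 series, 3 Trem1-deficient against 5 wild-type (adjusted p = 0.0923). Psmd11 was at 18.8, 17.4, 12.9, 29.8 and 31.8 CPM in Trem1-deficient mice, with 53.1 CPM in the lowest wild-type CCl4 mouse. Its log2 fold change was -2.93 ± 0.69 (edgeR adjusted p = 0.0196), a 7.61-fold lower level with 5 of 5 mice below the wild-type mean. The call was lost in 7 of 20 alternatives, with adjusted p up to 0.143: with index series as a term, among the mice of 1 series (0.0906), and without wild-type CCl4 mouse 4 or 5 or Trem1-deficient mouse 1, 2 or 3. The direction was the same in all 20 for both genes. Hepatocyte, monocyte and neutrophil marker genes were also lower in this comparison, as given above, and their part was not tested.

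Psma4 had the next smallest p, at 101, 64.4, 85.3, 62.7 and 54.8 CPM in Trem1-deficient mice against 106 to 457 CPM in wild type after CCl4 (log2 fold change -1.39 ± 0.46, edgeR adjusted p = 0.110). The groups did not overlap, and DESeq2 called it (adjusted p = 0.0201). With Psmd7 and Psmd11 it makes 3 of 47 members (6.38%) lower without overlap, against 2.12% of all tested genes. In the other direction Psmd13 and Psmg2 did not overlap, 2 of 47 (4.26%) against 3.42%. Psmd13 was at 334 to 427 CPM in Trem1-deficient and 137 to 304 CPM in wild-type CCl4 mice (0.63 ± 0.29, edgeR adjusted p = 0.291). Psmg2 was at 12.7 to 21.1 CPM in Trem1-deficient mice (2.29 ± 1.11, edgeR adjusted p = 0.324).

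The immunoproteasome genes were higher in Trem1-deficient than in wild-type mice after CCl4 in their means, but 0 of 3 passed edgeR's or DESeq2's test. Over all tested genes 2.06% passed by edgeR and 6.84% by DESeq2. At an unadjusted p under 0.05, 2 of 3 were higher, against 6.79% of all tested genes. Psmb10 was at 218, 253, 198, 193 and 166 CPM in Trem1-deficient mice (log2 fold change 1.15 ± 0.50, edgeR adjusted p = 0.261), and its range met that of wild-type CCl4 mice. Psmb9 was at 207, 111, 129, 108 and 70.4 CPM (0.94 ± 0.42, edgeR adjusted p = 0.268), with only mouse 5 inside the wild-type CCl4 range. Psmb8 was at 128 to 231 CPM (0.82 ± 0.40, edgeR adjusted p = 0.331). Their sum was 656, 539, 497, 473 and 364 CPM, above the 327 CPM of the highest wild-type CCl4 mouse, and the Kupffer marker sums of the same libraries were also all above those of wild-type CCl4. Among the mice of 1 index series the median log2 fold change of the 3 genes was 0.67, beside 0.94 over all mice.

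Among the other members after CCl4, 6 of 7 constitutive beta genes and 5 of 6 ATPase genes had positive values, none called. The constitutive catalytic genes were at 1.28 ± 1.24 for Psmb5, 0.41 ± 0.37 for Psmb6 and 0.65 ± 0.79 for Psmb7. Psmb3 was at 0.72 ± 0.60 and Psma1 at 0.40 ± 0.42. Of the 11 non-ATPase genes, 7 were negative, with a median of -0.34 beside -0.03 over all genes. Psmd1 was at -0.77 ± 0.39, Psmd8 at -0.70 ± 0.41, Psmd2 at -0.34 ± 0.33 and Psmd4 at 0.01 ± 0.34. Psmd14, which encodes the deubiquitinase Rpn11 of the lid, was at 0.96 ± 0.79, and Psmd3, another lid gene, at 0.36 ± 0.32. Psmc3 and Psmc5, both ATPase genes, were at 0.35 ± 0.32 and 0.59 ± 0.54. Among chaperones Psmg3 was at -1.22 ± 0.80, Psmg4 at 0.74 ± 0.72 and Psmd9 at -1.40 ± 1.06. Psme4 was at -0.60 ± 0.57, Psme1 at 0.20 ± 0.50, Psme2 at 0.72 ± 1.01 and Psmf1 at -0.37 ± 1.30. The near copy Psme2b was at 1.44 ± 1.14.

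The third comparison set Trem1-deficient CCl4 mice against wild-type oil mice, which differ in genotype and treatment together. Of 47 members 0 were called by edgeR, 0 by DESeq2 and 0 at an unadjusted p under 0.05, against 0.233%, 0.822% and 4.66% of all tested genes. Psmd7 was at 174 to 309 CPM against 172 to 328 CPM in oil, nearly the same range (log2 fold change 0.22 ± 0.31). Psmd11 was at 12.9 to 31.8 CPM against 0 to 18.9 CPM (1.32 ± 0.68, the smallest p of the members, edgeR adjusted p = 1.00). Psmd4 was the 1 member of 47 (2.13%) higher without overlap, at 527 to 661 CPM against 229 to 500.4 CPM (0.64 ± 0.34), beside 1.63% of all tested genes. Psme1 was the 1 lower without overlap (2.13% against 1.27%), at 134, 156, 106, 99.8 and 61.8 CPM against 169 to 275 CPM (-0.85 ± 0.50). Psmb9 was at -0.49 ± 0.41, Psmb8 at -0.06 ± 0.40 and Psmb10 at 0.00 ± 0.50. All 17 genes of the 19S particle had values above 0, from 0.03 to 1.32 with a median of 0.35 beside 0.02 over all genes, and they were so with RLE, upper-quartile and library-total scaling for all 6 ATPase and all 11 non-ATPase genes. With index series as a term, and among the mice of 1 series, 10 of the 11 non-ATPase and all 6 ATPase genes were positive. Without the 3 libraries with the most genes at 0, all 11 non-ATPase and 5 of 6 ATPase genes were positive. The ATPase median was then 0.14. Oil mouse 2 had an ATPase sum of 428 CPM, beside 1213 to 1512 CPM in the other oil mice. In Trem1-deficient mice the ATPase sum was 1297 to 1438 CPM. The non-ATPase sum was 2049.9, 2107, 2204, 2192 and 1919 CPM in Trem1-deficient mice, above each oil mouse and below each wild-type CCl4 mouse. Psmd7 and Psmd11 were 10.7 to 16.0% of it. Psmd5, a 19S assembly chaperone, had a fold change of 2.29 ± 1.36 on the log2 scale at 6.35 to 16.1 CPM against 0 to 8.00 CPM in oil. Among lid genes Psmd14 was at 1.18 ± 0.80, Psmd3 at 0.46 ± 0.32, Psmd8 at 0.59 ± 0.41 and Psmd12 at 0.81 ± 0.66. The ATPase genes Psmc6, Psmc3 and Psmc2 were at 0.77 ± 0.48, 0.31 ± 0.31 and 0.51 ± 0.63. The alpha genes Psma1 and Psma6 were at -0.57 ± 0.42 and -0.45 ± 0.68, and the beta genes Psmb4, Psmb5, Psmb6 and Psmb7 at 0.36 ± 0.40, 0.14 ± 1.22, 0.20 ± 0.37 and 0.37 ± 0.78. The activator genes Psme2, Psme3 and Psme4 were at -0.02 ± 1.00, 0.74 ± 0.99 and 0.43 ± 0.58. Psmf1 was at 0.69 ± 1.31, and the assembly genes Psmd9 and Psmg2 were at 1.46 ± 1.07 and -1.03 ± 1.05.

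Within a library the ratio of an immunoproteasome gene to the gene it replaces does not depend on scaling. It was tested as log2 of the counts plus 1 of each, in 3 pairs and 3 comparisons, by two-sided exact permutation tests over mice; 252 divisions of 5 against 5 give 0.00794 as the smallest p. Psmb9 to Psmb6 was 0.24, -0.46, 0.19, 0.36 and 0.43 in oil, -1.57, -0.82, -1.40, -0.95 and -0.43 in wild-type CCl4 and 0.09, -0.76, -0.73, -0.68 and -0.97 in Trem1-deficient mice. The ratio was thus positive in 4 of 5 oil mice, negative in all wild-type CCl4 mice and negative in 4 of 5 Trem1-deficient mice. The difference from oil was -1.19 ± 0.26 (SE) in wild-type CCl4 and -0.76 ± 0.24 in Trem1-deficient CCl4 mice, each with an exact p of 0.0159 that became 0.0714 when adjusted over the 9 tests. Psmb10 to Psmb7 averaged 2.91 ± 0.40 (SD) in oil, 1.66 ± 1.17 in wild-type CCl4 and 2.59 ± 0.31 in Trem1-deficient mice. The difference of -1.25 ± 0.55 between wild-type CCl4 and oil had an exact p of 0.0476 (adjusted 0.143). In wild-type CCl4 mouse 5 the ratio rests on 5 counts of Psmb10 and 2 of Psmb7. The Nek6 gene overlaps the 3' end of Psmb7 on the other strand. Psmb8 to Psmb5 differed by -0.55 ± 1.09 between wild-type CCl4 and oil (exact p = 0.643). Psmb5 had no count in wild-type CCl4 mouse 5 and Trem1-deficient mouse 4, so that this ratio rests there on the added count. As a count of 0 allows up to 3 counts, the true ratio may lie on either side of the value. Trem1-deficient against wild type after CCl4 gave 0.43 ± 0.27 for Psmb9 to Psmb6 (exact p = 0.175), 0.92 ± 0.54 for Psmb10 to Psmb7 (exact p = 0.151) and 0.39 ± 1.16 for Psmb8 to Psmb5 (exact p = 0.802). None of the 9 passed after adjustment. Among the mice of 1 index series Psmb9 to Psmb6 differed by -0.49 between Trem1-deficient CCl4 and oil mice (exact adjusted p = 0.429) and by 0.24 between Trem1-deficient and wild type after CCl4 (0.643). As a share of all 20S beta counts the immunoproteasome genes made up 36.2 to 50.3% in oil, 26.5 to 36.4% in wild-type CCl4 and 30.6 to 47.8% in Trem1-deficient libraries.

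**Figure D4:**
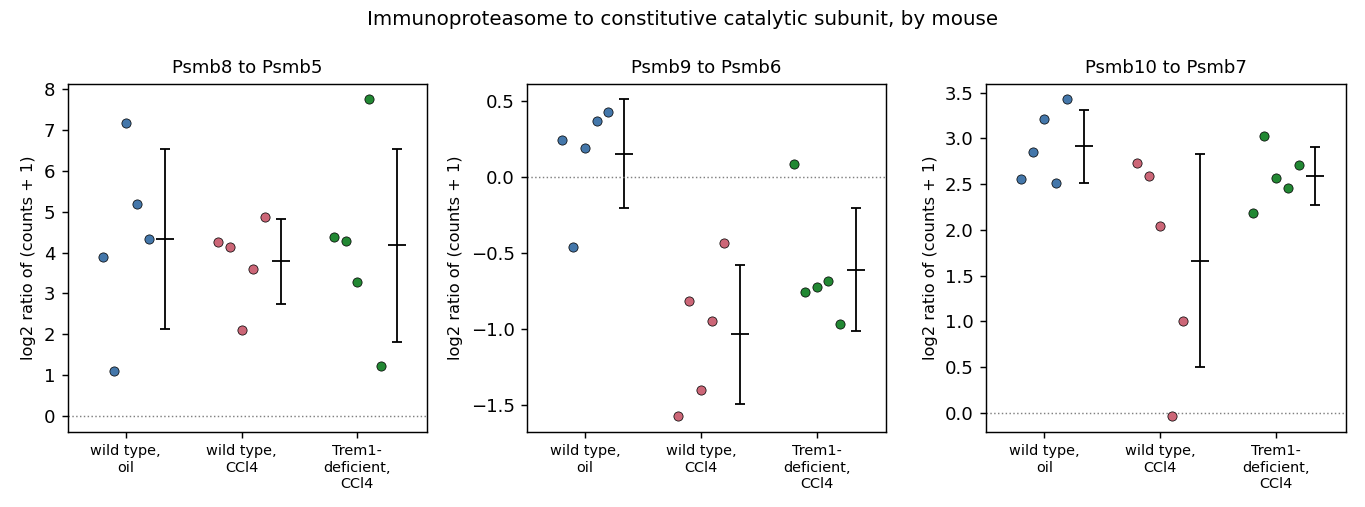
Log2 ratio of the counts (plus 1) of an immunoproteasome gene to those of the constitutive gene it replaces (vertical axes; the dotted line is 0, equal counts); points are the 5 mice of a group, and the bar is the mean with its SD. Psmb9 to Psmb6 is positive in 4 of 5 oil mice and negative in all wild-type CCl4 mice, and Psmb8 to Psmb5 spreads widely, with 2 mice (wild-type CCl4 mouse 5 and Trem1-deficient mouse 4) that had no Psmb5 count and whose points are set by the added count.

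Partners of the proteasome were read from 2 lists. Of 32 tested genes of ubiquitin and proteasome partners, 1 was higher (3.12%, against 3.04% of all tested genes) and 0 lower after CCl4 in wild type, with a median log2 fold change of 0.14. At an unadjusted p under 0.05 were 5 of 32 (15.6%), against 19% of all tested genes. DESeq2 called 1 higher (3.12%, against 6.81% of all tested genes) and 0 lower (against 4.41%). Sqstm1, which encodes the ubiquitin-binding autophagy receptor p62, was at 392, 160.4, 377, 319 and 259 CPM in oil and 698, 719.7, 829, 926 and 769 CPM in wild-type CCl4 mice. The groups did not overlap, and Sqstm1 rose by a log2 fold change of 1.39 ± 0.30 (edgeR adjusted p = 0.00402). With index series as a term its log2 fold change was 0.89 ± 0.51 (edgeR adjusted p = 0.857). The other named partners were not called: Pomp, the maturation factor of the 20S core, was at -0.59 ± 0.27. Shfm1, the small lid subunit Sem1, was at 0.83 ± 0.34 and the ubiquitin-conjugating enzyme gene Ube2d3 at -0.78 ± 0.33. The polyubiquitin gene Ubb had 0 to 2.89 CPM and was not tested. Unassigned reads were not traced to genes, so this low count need not reflect its expression. Nfe2l1, the factor that restores proteasome genes when the proteasome is inhibited, was at 0.19 ± 0.34 and Nfe2l2 at -0.34 ± 0.35. In Trem1-deficient against wild-type mice after CCl4, 0 of 32 partners were called by edgeR, 4 (12.5%) had an unadjusted p under 0.05 and DESeq2 called 1 (3.12%). Over all tested genes these shares were 2.06%, 15.2% and 6.84%. Those 4 were the ubiquitin ligase gene Ube3c (-2.65 ± 1.00), Pomp (0.68 ± 0.27), Sqstm1 (-0.72 ± 0.29) and Shfm1 (-0.78 ± 0.34). Nfe2l1 was at -0.29 ± 0.34 and Nfe2l2 at -0.25 ± 0.35.

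Of 21 tested genes of MHC class I processing and the interferon-gamma response, 1 was higher (4.76%, against 3.04% of all tested genes) and 0 lower after CCl4 in wild type. At an unadjusted p under 0.05 were 4 of 21 (19%, as of all tested genes). DESeq2 called 1 higher (4.76%, against 6.81% of all tested genes) and 0 lower (against 4.41%). Of the 21 log2 fold changes 14 were negative, with a median of -0.52. Calr encodes a chaperone of the endoplasmic reticulum that loads MHC class I. Its level was 1060.3 to 1606 CPM in oil and 1813 to 7798 CPM in wild-type CCl4 mice. Calr rose by 1.47 ± 0.35 on the log2 scale (edgeR adjusted p = 0.0143). With index series as a term its log2 fold change was 0.92 ± 0.59 (edgeR adjusted p = 0.931). H2-D1, a class I heavy chain, was at -0.70 ± 0.23 (edgeR adjusted p = 0.0759) and B2m, the light chain, at -0.71 ± 0.24 (0.0782). Tapbp, the peptide-loading factor tapasin, was at -0.97 ± 0.38. Tap1, the peptide transporter whose start overlaps Psmb9, was at 0.46 ± 0.56, and Irf1, a transcription factor of the interferon response, at -0.64 ± 0.33. Without the 3 libraries with the most genes at 0, H2-D1 (-0.98, edgeR adjusted p = 0.0193), B2m (-0.93, 0.0430) and Tapbp (-1.28, 0.0304) passed as lower. Over all genes 228 were called lower in that alternative, beside 188 in the main fit. In Trem1-deficient against wild-type mice after CCl4, 0 of 21 were called by edgeR or DESeq2 and 0 had an unadjusted p under 0.05. Over all tested genes these shares were 2.06%, 6.84% and 15.2%. Irf1 was at 0.66 ± 0.33, Irf8, another interferon response factor, at 0.54 ± 0.29, and Tapbpl, a relative of tapasin, at 1.57 ± 0.92. Ifngr1, a receptor chain for interferon-gamma, was at -0.59 ± 0.34 and Tap1 at -0.42 ± 0.56. In Trem1-deficient CCl4 against oil mice 0 of either list were called. At an unadjusted p under 0.05 was 1 of each list (3.12% and 4.76%, against 4.66% of all tested genes). These were Sqstm1 at 0.66 ± 0.29 and Calr at 1.15 ± 0.35. DESeq2 called 0 of either list there, while Calr passed with no filter on low counts (edgeR adjusted p = 0.000224). Nfe2l2 was at -0.59 ± 0.35, Nfe2l1 at -0.10 ± 0.34, Ube2d3 at -0.48 ± 0.33, Pomp at 0.10 ± 0.27 and Ubqln4, a ubiquitin-binding shuttle gene, at 1.77 ± 1.18. The class I genes H2-K1 and H2-D1 were at -0.51 ± 0.26 and -0.42 ± 0.23, Ifngr1 at -0.59 ± 0.34, Tap1 at 0.04 ± 0.56 and Irf1 at 0.02 ± 0.33.

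The tested members had a higher level than tested genes in general, with a median of 76.4 against 31.9 CPM, and the spread between mice was not compared at matched levels. The median coefficient of variation was 0.444 in oil, 0.641 in wild-type CCl4 and 0.247 in Trem1-deficient mice, against 0.651, 0.909 and 0.484 over all tested genes. All 48 subunits and regulators together took 0.487 to 0.656% of gene counts in oil, 0.502 to 0.615% in wild-type CCl4 and 0.626 to 0.727% in Trem1-deficient libraries. The 50 members lie on 16 chromosomes, and 24 overlap another annotated gene, 10 of them within the last 500 bases, where the reads arise. The members left out of the test were at or near 0: Psma8, an alpha subunit of testis, had 0 to 7.24 CPM, Psmb11, the beta subunit of the thymus, had counts in 1 library (4.67 CPM, Trem1-deficient mouse 2), and Psmc3ip had 0 to 6.62 CPM.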

How the data were processed

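RNA of Kupffer cell preparations from 15 mice was measured by 3' tag sequencing (Lexogen QuantSeq, per the labels' protocols). The 60 label entries are 4 lanes of each mouse, the deposited table has a column per mouse, and the mouse is the replicate; p-values measure the spread between these mice. The authors deposited whole-number counts by gene, not normalized. The submitters' processing notes name Trimmomatic, STAR 2.5.1a, Partek 6.6 and mm10 without saying what each was used for, and neither the annotation nor the strand setting is stated in them. Of 24415 lines, 4 are tallies of unassigned reads, left out of library sizes and tests; the share of reads in genes was 12.6 to 28.8%, or 812320 to 2593004 counts by library, and no molecular identifiers are mentioned. No library was a repeat of another in its group (the smallest chi-square over genes was 10.2 per degree of freedom).

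The test was edgeR 4.0.16 under R 4.3.3 (TMM, filterByExpr by group, robust quasi-likelihood F-test, 1 fit of 3 groups, 12 residual degrees of freedom, Benjamini-Hochberg adjusted p under 0.05). DESeq2 1.42.0, other scalings, no filter, 2 groups alone, mouse number as a block, index series, and leaving out each mouse were alternatives. The code was checked on simulated counts. Across the 3 comparisons the test recovered 0 to 1.64% of 2-fold, 20 to 25.4% of 4-fold and 41.9 to 54.4% of 8-fold changes. A gene that was not called may therefore still have changed. Members and gene lists were chosen with earlier results of these data known. Named by rule in each comparison are the 20 members with the smallest p, Psmb5 to Psmb10, Psme1, Psme2, Psmf1, Pomp, and up to 4 genes of each partner list by p, with Ubb, Nfe2l1, Nfe2l2, Tap1 and Irf1; other genes of the rule are not reported here. Psmd12 and others in counts of 5 or fewer were named after their values were seen. Positions are from GENCODE M21 (50 of 50 names matched) and promoters from RefSeq.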

Additional observations from a re-analysis of the deposited data

Results flagged for a closer look

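In groups of 5 mice, 81 sets of values were searched for a mouse that stands apart from the others (a gap over 0.71 of the range), which chance alone gives in about 1 of 20 sets, and 10 were found. Oil mouse 2, 1 of the 3 libraries with the most genes at 0, accounts for 4: Psmb5 at 56.8 CPM (the other 4 mice 0.704 to 12.2 CPM), the 20S alpha sum at 1638 CPM (849 to 1073 CPM), the 19S ATPase sum at 428 CPM (1213 to 1512 CPM) and a Psmb9 to Psmb6 ratio of -0.46 on the log2 scale (0.19 to 0.43). Wild-type CCl4 mouse 5, the shallowest library, had the lowest sum of PA28 and PA200 activators (31.4 CPM beside 251 to 324 CPM) and the highest 19S non-ATPase sum without Psmd7 and Psmd11 (2689 CPM beside 1509 to 1733 CPM). Trem1-deficient mouse 5 had the lowest Psmd7 of its group (174 CPM beside 285 to 309 CPM), and Trem1-deficient mouse 1 the highest Psmb9 to Psmb6 ratio (0.085 beside -0.97 to -0.68). Oil mouse 1 had the lowest 19S non-ATPase sum (1489.5 CPM beside 1639.6 to 1660.2 CPM) and oil mouse 3 the highest activator sum (419 CPM beside 242 to 281 CPM).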

How the results depend on the processing

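For CCl4 against oil in wild type, the count of members called higher was 2. It became 5 with DESeq2 (10.6%, against 6.81% of all tested genes) and 0 with index series as a term. The count called lower was 1. It became 2 with DESeq2 (4.26%, against 4.41% of all tested genes). It was 0 with RLE scaling, with no filter on low counts and with only the 2 groups compared. The mouse number as a replicate block and index series as a term also gave 0. Leaving out 1 mouse gave 0 to 1. For Trem1-deficient against wild type after CCl4 the count called lower was 2, and became 1 with index series as a term and 0 among the mice of 1 index series; leaving out 1 mouse gave 1 to 3. The cause of these changes was not tested, though 3 against 5 mice is a smaller sample. Leaving out 1 mouse moved the Psmb8 to Psmb5 ratio across 0, from -1.36 to 0.16 for CCl4 against oil, from -0.50 to 1.135 for Trem1-deficient against wild type after CCl4 and from -1.05 to 0.59 for Trem1-deficient CCl4 against oil, none of them called. The mouse numbers did not pair the mice: same-numbered mice of different groups had correlations of -0.06 to 0.04 in 15 pairs, and 1 of 15 libraries correlated best with its own number. The replicate block ended the calls of Psmb9 (adjusted p = 0.0758) and Calr (0.0828) and of no other member or partner named. Another setting, chosen after the data were seen, left out the 3 libraries with the most genes at 0. There 3 members were called higher and 1 lower for CCl4 against oil. Among all 10401 genes tested there, 388 were called higher and 228 lower for CCl4 against oil. The member counts were 0 and 2 for Trem1-deficient against wild type, and 0 and 0 for the third comparison. Over 2319 combinations of a named gene and a setting, 2197 kept direction and side of the threshold, 24 lost and 26 gained a call, 72 changed sign without a call and 0 reversed a call. Over all genes RLE, upper-quartile and library-total scaling put the median log2 fold change of CCl4 against oil at 0.11, -0.11 and -0.14 beside 0.06. For Trem1-deficient against wild type these were -0.11, 0.16 and 0.27 beside -0.03. Genes called higher and lower by CCl4 against oil (274 and 188) became 613 and 397 with DESeq2, 522 and 291 with no filter, 214 and 110 with only 2 groups, and 25 and 12 with index series as a term. For Trem1-deficient against wild type (70 and 115) they became 189 and 427 with DESeq2, 161 and 402 with no filter, 35 and 99 with only 2 groups, 37 and 40 with index series as a term, 17 and 40 among the mice of 1 series, and 138 and 245 without the 3 libraries. For the third comparison (16 and 5) they became 57 and 17 with DESeq2, 44 and 29 with no filter, 15 and 10 with only 2 groups, 13 and 8 with the replicate block, 6 and 5 with index series as a term, 9 and 13 among the mice of 1 series, and 35 and 11 without the 3 libraries. Depth is low for Psmb5, Psmd5, Psmf1 and Psmg1, each with a count of 0 in 2 or 3 libraries. Psmd11 is among the other tested members with a count of 0 in 1 library.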
